A study of Mus musculus with 16 samples.

Results

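The genes described here build, remodel or mark the extracellular matrix of the liver: collagens, basement membrane and matrix glycoprotein genes, the cytoskeletal and receptor genes that mark hepatic stellate cells, matrix proteases and their inhibitors, and the ligand and receptor of the transforming growth factor beta (TGF-beta) pathway. They form a fixed list of 38 gene symbols, chosen with earlier results of these data known. Of these, 35 matched a row among the 13006 genes of the count table, and all 35 were among the 12918 genes tested. Timp1, Lox and Loxl1 were not analysed here. Poly(A) RNA from the livers of mice with the genotype Humanized PXR-CAR-CYP3A4/3A7 was sequenced in 16 libraries, 4 in each of 4 groups, and this genotype was common to all groups. Group CV received the vehicle propylene glycol. Group EV received ethinylestradiol (EE), a synthetic oestrogen that induces cholestasis, at 10 mg/kg subcutaneously in propylene glycol for 7 days. Group CM received MI763F, a ligand of the constitutive androstane receptor (CAR), by gavage at 2.5 mg/kg on 6 consecutive days from day 2, without EE. Group EM received EE and MI763F together. The labels name a DMSO, PEG300 and corn oil formulation for MI763F and do not say whether mice without MI763F were given that formulation. No source used here gives age or sex. Whether each library came from its own animal is not stated, so p-values measure the spread between these libraries, which may be technical.

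Stellate cells lie between the sinusoidal endothelium and the hepatocytes and store vitamin A as retinyl esters, which lecithin retinol acyltransferase (Lrat) makes. On injury, TGF-beta and platelet-derived growth factor act on them and on portal fibroblasts, and the cells can turn into contractile myofibroblasts that express alpha-smooth muscle actin (Acta2) and secrete fibrillar collagens. Cholestasis, in which bile is retained, is one of the injuries known to activate portal fibroblasts and stellate cells. Several matrix genes are also expressed outside these cells: hepatocytes secrete plasma fibronectin (Fn1), and endothelial cells make basement membrane collagens. In RNA from whole liver, fewer cells of a type and less RNA per cell cannot be told apart.

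Library totals ran from 14115384 to 21473227 estimated counts. The hepatocyte gene Alb was at 22500 to 83500 CPM (counts scaled to library size) across the libraries. CPM values are scaled by the trimmed mean of M values (TMM). Its factors spanned 0.833 to 0.91 in CV and CM libraries and 1.1 to 1.23 in EV and EM libraries, so the scaling itself moved with EE. CV replicate 1 was the lowest library of its group in 28 of the 35 genes, and CM replicate 2 was the highest of its group in 22 of the 35. The effect of leaving a library out was read only for comparisons that include its group. Where leaving out either library made, ended or turned a call there, this is stated beside the gene. Changes are log2 fold changes from edgeR's quasi-likelihood test with their standard errors (SE), called at an adjusted p below 0.05 with Benjamini-Hochberg adjustment over all 12918 genes.

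With EE alone, 18 of the 35 genes rose, 4 fell and 13 did not pass the test. The share that rose was 51.4%, against 25.5% of all genes tested, and the share that fell was 11.4%, against 24.9% of all genes tested. Because the list was chosen with earlier results known, the shares and medians set beside all genes only describe it. The median log2 change over the 35 genes was 0.72, beside 0.004 over all genes tested. In all 18 genes that rose, every EV library lay above every CV library, as in 90.1% of all genes called higher. Counting Col5a2, which did not pass, 19 of the 35 genes had no overlap in that direction, or 54.3%, against 24.6% of all genes tested. In mice that also received MI763F, EM against CM, 12 genes rose and 3 fell, or 34.3% and 8.57%, against 19.4% and 18.6% of all genes tested, and the median was 0.22 beside 0.001. These 2 comparisons share no library, and all 12 genes that rose in the second were among the 18 of the first. Without TMM factors, scaling by library totals alone, the median of all genes moved by 0.49 in EV against CV and by 0.38 in EM against CM. The calls were then 21 of the 35 higher and 2 lower for EV against CV, against 54.6% and 10.3% of all genes tested. For EM against CM they were 19 of the 35 higher and 1 lower, against 45.6% and 7.24% of all genes tested. In both comparisons the share of the 35 that rose then lay closer to that of all genes tested than with TMM. Without CV replicate 1, EV against CV gave 17 higher and 7 lower, against 23.6% and 23.3% of all genes tested. Without CM replicate 2, EM against CM gave 14 higher and 1 lower, against 19.8% and 19.1%.

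**Figure D1:**
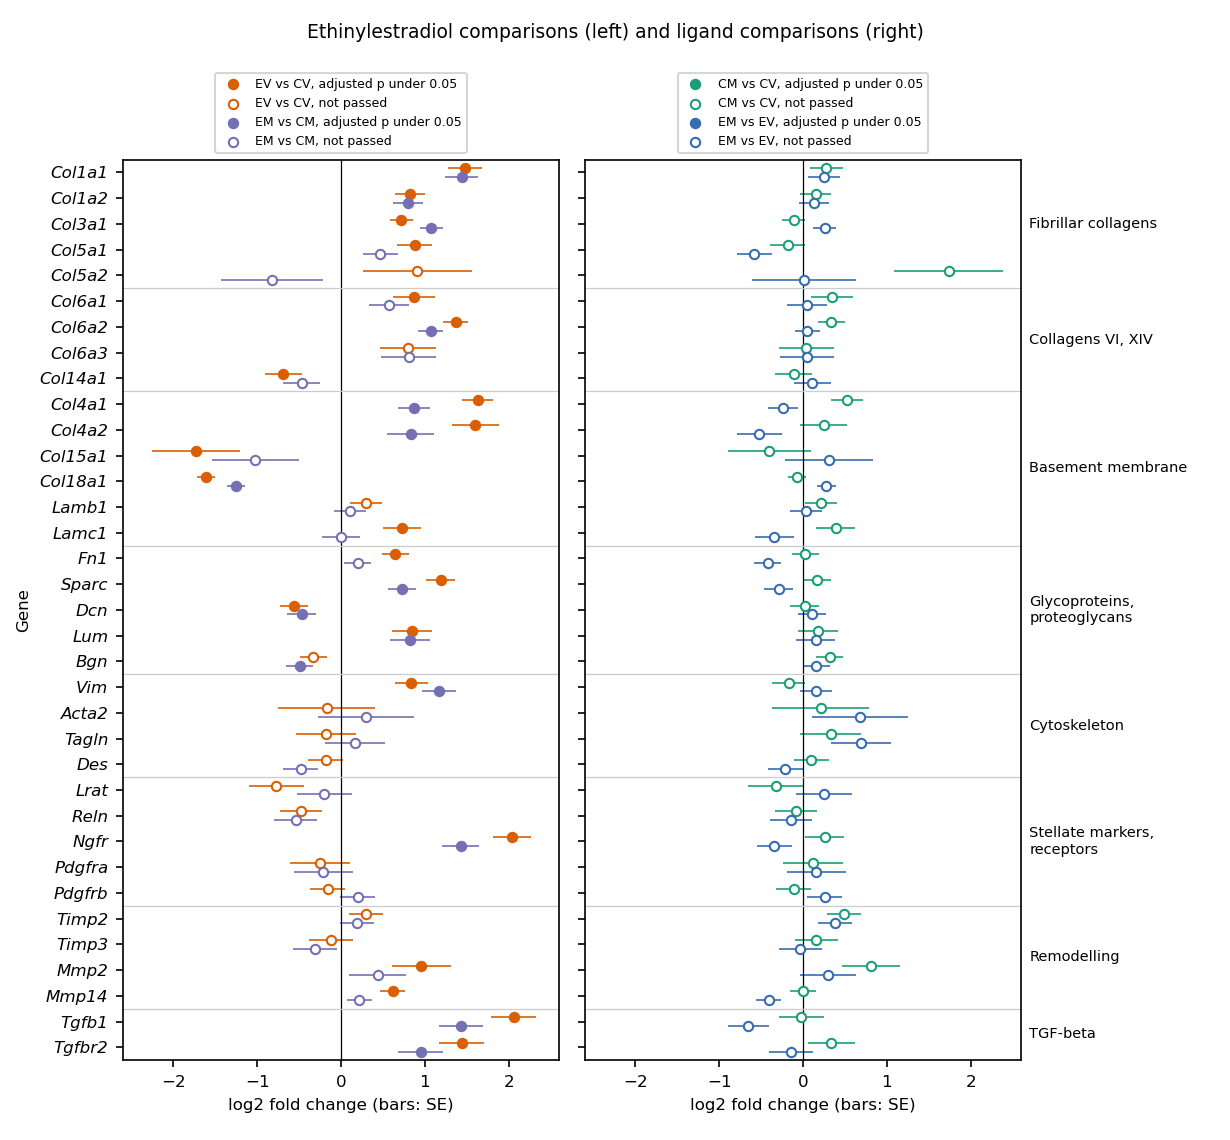
Log2 fold change (x axis) of each of the 35 genes (rows, grouped by role) for the EE comparisons (left) and the MI763F comparisons (right). Points are edgeR estimates, filled where the adjusted p is under 0.05, and bars are their SE. No point on the right is filled. Tgfb1 and Ngfr lie farthest to the right in EV against CV, at 2.06 and 2.04, and Col15a1 and Col18a1 farthest to the left, at -1.73 (-0.85 without CV replicate 2) and -1.61.

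The fibrillar collagens make the tension-bearing fibres of scar tissue. With EE alone 4 of the 5 measured rose, or 80%, against 25.5% of all genes tested. Col1a1 encodes the alpha-1 chain of type I collagen, which is the main collagen of fibrous scars. It was at 1.92, 2.98, 2.13 and 2.65 CPM in CV replicates 1 to 4 and at 9.33, 6.18, 5.92 and 5.62 CPM in EV replicates 1 to 4. It was at 3.01, 3.27, 2.24 and 3.26 CPM in CM and 7.26, 9.51, 7.1 and 8.22 CPM in EM, in the same order of replicates. The EE groups lay above the groups without EE in every library, with EV replicate 1 well above the other EV libraries. The change was 1.48 ± 0.2 (log2, SE; adjusted p = 2e-05) for EV against CV and 1.44 ± 0.2 (adjusted p = 4.81e-05) for EM against CM. Col1a2 encodes the partner alpha-2 chain. It was at 2.85, 4.2, 5.36 and 4.66 CPM in CV and 8.17, 7, 7.31 and 7.67 CPM in EV, and at 4.81, 5.58, 4.01 and 4.57 CPM in CM and 6.35, 9.82, 7.73 and 9.13 CPM in EM. All EE libraries again lay above all libraries without EE, by 0.82 ± 0.18 (adjusted p = 0.00156) without the ligand and 0.8 ± 0.18 (adjusted p = 0.00271) with it. Col3a1, whose type III collagen forms reticular fibres with type I, was at 10.3, 13.7, 14.6 and 14.4 CPM in CV and 25.9, 19.7, 17.4 and 24 CPM in EV. In CM it was at 12.5, 10.6, 14.2 and 11.9 CPM and in EM at 23.2, 28.2, 24.5 and 28.3 CPM. Neither pair of groups overlapped, and the changes were 0.72 ± 0.14 (adjusted p = 0.000685) and 1.08 ± 0.14 (adjusted p = 3.72e-05).

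The type V collagen chains start type I fibrils and limit their width. Col5a1 was at 2.78, 5.19, 4.95 and 4.66 CPM in CV and 8.58, 8.12, 8.76 and 6.83 CPM in EV, with no overlap and a change of 0.88 ± 0.21 (adjusted p = 0.00286). In EM it was at 5.34, 4.33, 5.99 and 5.91 CPM against 2.7, 5.19, 3.47 and 4.15 CPM in CM, where the groups overlapped (0.47, 95% interval 0.02 to 0.92, adjusted p = 0.094). Without CM replicate 2 it was called higher there (0.64, adjusted p = 0.0287), and also with library totals (0.84, adjusted p = 0.00469). Col5a2 had the lowest counts of the 35 genes, down to 8 in a library. It was at 0.641, 0.84, 0.619 and 0.825 CPM in CV and 1.48, 1.46, 1.33 and 1.26 CPM in EV, which did not overlap but did not pass the test (0.91 ± 0.65, adjusted p = 0.258). CM replicate 2 stood apart for this gene, with 0.751, 7.57, 0.617 and 0.894 CPM in CM against 1.23, 1.83, 1.2 and 1.34 CPM in EM. The change for EM against CM was -0.82 (adjusted p = 0.322) with that library and 0.88 (adjusted p = 0.0171) without it. When only the CV and EV libraries were fitted, Col5a2 was called higher.

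The Col1a2 promoter is shown because Col1a2 rose in both EE comparisons and its window holds CCAAT on each strand. Promoters are 300-base windows from RefSeq on GRCm38.p6, 250 bases before to 50 bases after the gene's start, and 25 of the 35 genes matched one. The window of Col1a2 is chr6:4505368-4505667 on the plus strand, 5′ to 3′, with CCAAT or its reverse complement in capitals at 2 matches. With the annotated start as base 1, the first match begins at -109 and the last ends at 5, after the start.
Col1a2: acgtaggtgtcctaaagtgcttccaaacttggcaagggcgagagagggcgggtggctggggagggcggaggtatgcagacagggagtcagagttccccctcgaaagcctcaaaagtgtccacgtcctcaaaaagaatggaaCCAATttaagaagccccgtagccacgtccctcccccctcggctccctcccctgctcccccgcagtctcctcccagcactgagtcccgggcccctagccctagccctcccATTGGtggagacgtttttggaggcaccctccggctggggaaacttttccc

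Collagen VI forms beaded microfilaments at the border between basement membrane and interstitial matrix. With EE alone 2 of its 3 chains rose, against 25.5% of all genes tested. Col6a2 was at 1.71, 2.14, 2.75 and 2.36 CPM in CV and 5.71, 5.93, 6.04 and 5.46 CPM in EV. In CM it was at 2.33, 3.33, 2.78 and 2.89 CPM and in EM at 6.35, 6.53, 5.42 and 5.64 CPM. The EE libraries were all higher, by 1.37 ± 0.15 (adjusted p = 3.87e-06) and 1.07 ± 0.15 (adjusted p = 6.74e-05). Col6a1 was at 1.78, 3.21, 4.54 and 5.07 CPM in CV and 7.01, 7.25, 6.46 and 6.04 CPM in EV, and rose by 0.87 ± 0.25 (adjusted p = 0.00801). For EM against CM the value of Col6a1 was 0.57 (95% interval 0.06 to 1.09, adjusted p = 0.0752), and CM replicate 2, at 5.71 CPM, lay within the EM range. Col6a3 was at 2.42 to 8.32 CPM in CV and 6.76 to 9.87 CPM in EV (0.8, adjusted p = 0.0529), and the EM against CM value was 0.81 (adjusted p = 0.064). In EM against CM both Col6a1 and Col6a3 passed with library totals, with DESeq2, with only the CM and EM libraries fitted and without EM replicate 1. Col6a3 in EV against CV passed with library totals, with the 1 CPM filter, with DESeq2 and without CV replicate 3. Col14a1, a fibril-associated collagen found with stellate cells and fibroblasts, went the other way. It was at 11.7, 18.9, 27.5 and 24.1 CPM in CV and 10.7, 14.8, 14.9 and 10.6 CPM in EV, where CV replicate 1 lay among the EV libraries. It fell by 0.69 ± 0.22 (adjusted p = 0.0162), a call that was lost without CV replicate 3 and with library totals (-0.21, adjusted p = 0.426).

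The basement membrane genes split in both directions. Type IV collagen is the network-forming collagen of basement membranes, and stellate and endothelial cells of the sinusoid make it in small amounts in normal liver. Its chains Col4a1 and Col4a2 are encoded head to head on opposite strands of chromosome 8, and in the RefSeq windows their starts lay 21 bases apart. Both windows are printed to show this shared start, since both genes rose in both EE comparisons. The window of Col4a1 is chr8:11312777-11313076 on the minus strand and that of Col4a2 is chr8:11312555-11312854 on the plus strand (GRCm38.p6). Capitals mark the 78 bases that both windows hold, each read 5′ to 3′ on its own strand.
Col4a1: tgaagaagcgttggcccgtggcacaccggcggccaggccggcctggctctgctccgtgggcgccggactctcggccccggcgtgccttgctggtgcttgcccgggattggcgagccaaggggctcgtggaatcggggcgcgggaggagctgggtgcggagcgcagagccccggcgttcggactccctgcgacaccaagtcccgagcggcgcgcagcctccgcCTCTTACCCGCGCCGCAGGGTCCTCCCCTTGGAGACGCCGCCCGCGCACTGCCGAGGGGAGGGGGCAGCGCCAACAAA
Col4a2: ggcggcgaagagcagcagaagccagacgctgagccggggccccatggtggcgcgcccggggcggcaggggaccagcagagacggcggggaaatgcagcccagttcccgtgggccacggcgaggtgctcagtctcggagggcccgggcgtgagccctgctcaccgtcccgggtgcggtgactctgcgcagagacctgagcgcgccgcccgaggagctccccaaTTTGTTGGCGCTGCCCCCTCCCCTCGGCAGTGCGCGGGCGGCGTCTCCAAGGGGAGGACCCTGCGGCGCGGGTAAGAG

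Col4a1 was at 6.41, 6.42, 8.38 and 12.8 CPM in CV and 28.6, 23.7, 29.7 and 24.1 CPM in EV. With the ligand it was at 11.5, 14.2, 12 and 11.5 CPM in CM and 25.3, 18.7, 25.5 and 20.3 CPM in EM. Neither pair overlapped, and the changes were 1.63 ± 0.19 (adjusted p = 5.84e-06) and 0.87 ± 0.19 (adjusted p = 0.00202). Col4a2 was at 2.06, 5.73, 5.29 and 5.25 CPM in CV and 15.7, 14.9, 13.1 and 12 CPM in EV, with CV replicate 1 the lowest library by a wide gap. It was at 3.53, 7.82, 4.63 and 5.78 CPM in CM and 12.4, 7.81, 9.59 and 8.92 CPM in EM, where the highest CM library, replicate 2, and the lowest EM library were level. The changes were 1.6 ± 0.28 (adjusted p = 0.000224) and 0.83 ± 0.28 (adjusted p = 0.0273), and the second was lost without CM replicate 1, without CM replicate 3 or without EM replicate 1 (adjusted p up to 0.0893).

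Col18a1, the precursor of endostatin and a collagen that hepatocytes also express strongly, was among the most abundant of the 35 genes and fell. It was at 361, 363, 461 and 389 CPM in CV and 121, 122, 130 and 143 CPM in EV. In CM it was at 369, 336, 410 and 380 CPM and in EM at 128, 150, 175 and 173 CPM. All EE libraries were far below all libraries without EE, by -1.61 ± 0.11 (adjusted p = 4.42e-08) and -1.25 ± 0.11 (adjusted p = 1.43e-06), and with library totals by -1.13 and -0.88. Col15a1, a close relative found in perivascular basement membranes, was at 4.34, 12.3, 1.58 and 2.53 CPM in CV and 1.53, 1.99, 1.27 and 1.42 CPM in EV. CV varied widely and overlapped EV. The change was -1.73 ± 0.52 (adjusted p = 0.0123), and without CV replicate 2, at 12.3 CPM, it was -0.85 and the call was lost (adjusted p = 0.0911). For EM against CM Col15a1 did not pass (-1.02, adjusted p = 0.135). The laminin chains Lamb1 and Lamc1 form laminin trimers, the first layer of a basement membrane. Lamc1 was at 6.05, 4.97, 5.7 and 5.54 CPM in CV and 7.56, 8.66, 9.84 and 10.8 CPM in EV and rose by 0.73 ± 0.23 (adjusted p = 0.0168, or 0.0555 without EV replicate 4). In EM it was at 7.96, 6.83, 9.59 and 4.73 CPM against 7.36, 9.81, 4.24 and 7.62 CPM in CM, a log2 difference of 0 (95% interval -0.49 to 0.49). Lamb1 was at 1.85 to 2.89 CPM in CV and 2.58 to 3.05 CPM in EV (0.3, adjusted p = 0.215) and passed in neither comparison with TMM. With library totals Lamb1 was called higher in EV against CV.

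**Figure D2:**
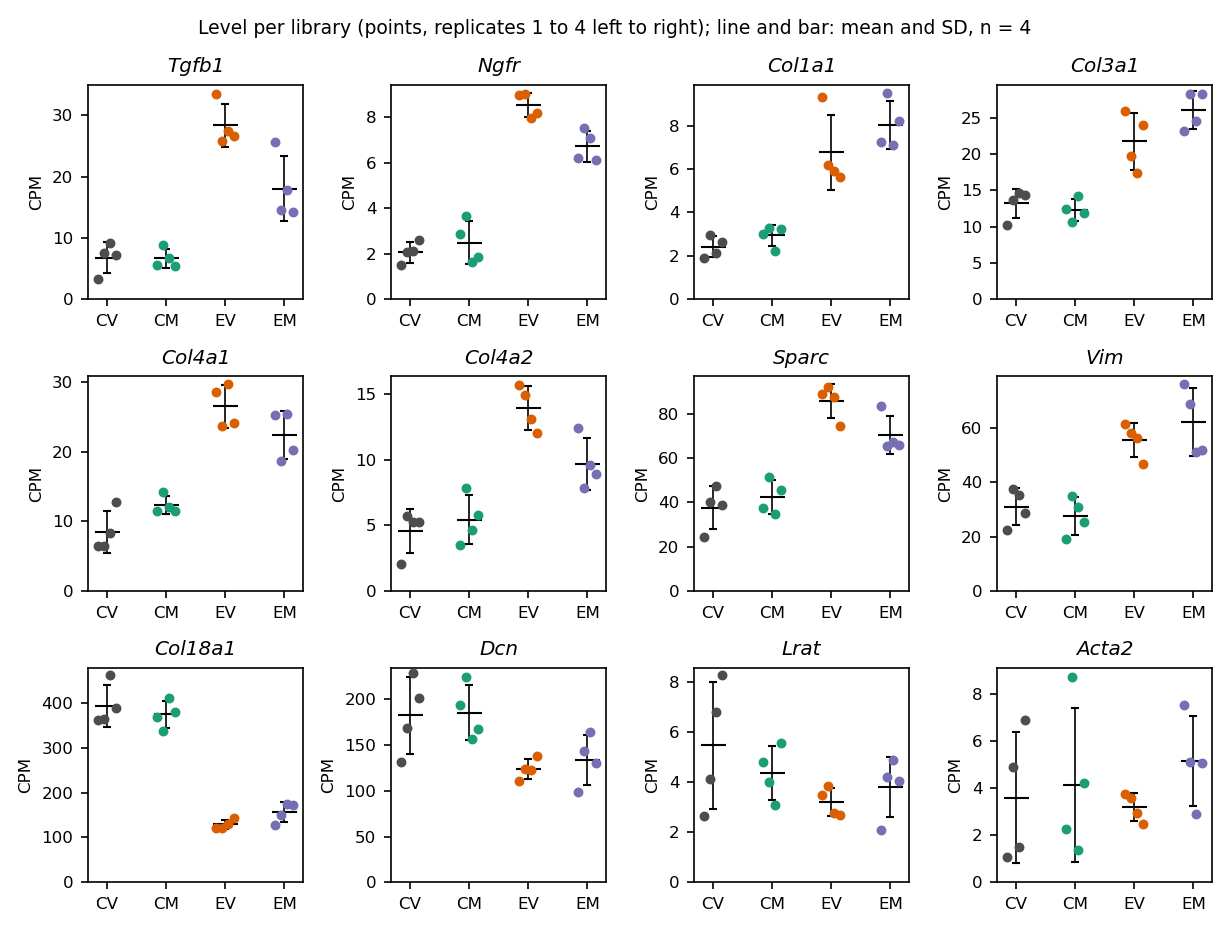
CPM (y axis, scaled by TMM) of selected genes in each library of CV, CM, EV and EM. Points are libraries, and lines and bars are the mean and SD of 4 libraries. The EE groups lie above the groups without EE for Col1a1 (5.62 to 9.51 against 1.92 to 3.27 CPM) and below them for Col18a1 (121 to 175 against 336 to 461 CPM).

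Among the matrix glycoproteins and proteoglycans, Fn1 and Sparc rose with EE alone and the small proteoglycan Dcn fell. Sparc encodes osteonectin, a collagen-binding protein of remodelling matrix. It was at 24.3, 40.3, 47.3 and 38.8 CPM in CV and 89.1, 92.1, 87.8 and 74.6 CPM in EV, and at 37.4, 51.6, 34.9 and 45.8 CPM in CM and 83.4, 65.3, 67.2 and 65.9 CPM in EM. No EE library overlapped its comparison group, and the changes were 1.19 ± 0.17 (adjusted p = 4.08e-05) and 0.73 ± 0.17 (adjusted p = 0.0034). Fn1, encoding fibronectin, was at 809, 553, 808 and 654 CPM in CV and 1130, 1080, 1070 and 1160 CPM in EV, a rise of 0.65 ± 0.16 (adjusted p = 0.00394). In EM, at 985, 870, 720 and 736 CPM, it overlapped CM, at 968, 609, 741 and 566 CPM, and did not pass (0.2, 95% interval -0.15 to 0.55, adjusted p = 0.371). Per kilobase of annotated exon, the scale on which levels of different genes can be compared, Fn1 was the highest of the 35 genes in both CV (60.4 CPM per kb) and EV (95 CPM per kb). On that scale Col18a1 came next in CV, at 56, ahead of Dcn at 31.2, Bgn at 14.7 and Sparc at 9.95. In EV the order after Fn1 was Sparc at 22.7, Dcn at 21.2 and Col18a1 at 18.4 CPM per kb.

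Lum (lumican), which spaces collagen fibrils, was at 2.92, 5.58, 5.64 and 5.54 CPM in CV and 6.17, 9.92, 7.55 and 11.8 CPM in EV. It was at 5.26, 6.73, 5.48 and 4.89 CPM in CM and 6.89, 11.1, 11.6 and 9.83 CPM in EM. The EE libraries were higher in both comparisons, by 0.85 ± 0.24 (adjusted p = 0.00815) and 0.82 ± 0.24 (adjusted p = 0.0131). Dcn (decorin), a collagen-binding proteoglycan that also binds TGF-beta and is abundant in quiescent stellate cells and fibroblasts, was at 131, 169, 228 and 201 CPM in CV and 111, 124, 123 and 138 CPM in EV. CV replicate 1 overlapped EV. The change was -0.56 ± 0.17 (adjusted p = 0.0147) and -0.47 ± 0.17 (adjusted p = 0.0455) for EM against CM. Scaling by library totals ended both calls, at -0.08 (adjusted p = 0.724) and -0.09 (adjusted p = 0.677), the first also without CV replicate 3 and the second also without CM replicate 1 or 2 or EM replicate 1, 2 or 4, or when only the CM and EM libraries were fitted. Bgn (biglycan), a relative of decorin, was at 66.3 to 110 CPM in CV and 66.9 to 76.1 CPM in EV (-0.33, adjusted p = 0.108). It was at 130, 132, 83.5 and 100 CPM in CM and 63.1, 84, 89 and 80.6 CPM in EM, which overlapped, and was called lower there (-0.49 ± 0.16, adjusted p = 0.0268). That call was lost with library totals (-0.12, adjusted p = 0.566) and without CM replicate 1, CM replicate 2 or EM replicate 1, or when only the CM and EM libraries were fitted, while without CV replicate 1 Bgn was also called lower in EV against CV (-0.45, adjusted p = 0.029).

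Of the 4 cytoskeletal genes, Vim rose and the contractile genes did not pass the test. With EE alone that is 1 of 4, or 25%, against 25.5% of all genes tested. Vim encodes vimentin, the intermediate filament of mesenchymal and immune cells. It was at 22.6, 37.6, 35.4 and 28.7 CPM in CV and 61.4, 58.4, 56.3 and 46.8 CPM in EV, and at 19, 34.9, 31.1 and 25.4 CPM in CM and 76.4, 69.1, 51.3 and 51.9 CPM in EM. The groups did not overlap in either comparison, with changes of 0.84 ± 0.2 (adjusted p = 0.00221) and 1.17 ± 0.2 (adjusted p = 0.000281). Acta2, the actin that defines contractile myofibroblasts, was at 1.07, 4.89, 1.51 and 6.9 CPM in CV and 3.76, 3.6, 2.96 and 2.47 CPM in EV. It was at 2.25, 8.72, 1.39 and 4.21 CPM in CM and 7.53, 5.12, 2.89 and 5.05 CPM in EM. Libraries of the same group differed more than the groups did. The values were -0.17 (95% interval -1.4 to 1.06, adjusted p = 0.829) and 0.3 (95% interval -0.91 to 1.52, adjusted p = 0.714), so changes of more than 1 log2 unit lie within the intervals. Acta2 belongs to a family of near-identical actins, and its counts are uncertain to that extent. Tagln (transgelin), another smooth muscle gene, ran from 4.59 to 14.6 CPM in EV and 7.08 to 10.5 CPM in CV (-0.18, adjusted p = 0.71). An annotated antisense gene covers 62.4% of Tagln's exon length, and how strand was counted is not given in the sources used here, so its level is uncertain. Des (desmin), an intermediate filament of stellate and muscle cells, was at 2.21 to 4.01 CPM in CV and 2.42 to 3.01 CPM in EV (-0.18, adjusted p = 0.519). Its EM against CM value was -0.48 (adjusted p = 0.0901), and it was called lower there without CM replicate 3. With library totals the values of Acta2, Tagln and Des for EV against CV were 0.3, 0.29 and 0.3, of opposite sign, and none passed.

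The Acta2 window is printed as that of the myofibroblast-defining gene that did not pass. It lies at chr19:34255324-34255623 on the minus strand (GRCm38.p6), with TATAA in capitals at its 1 match, and shares its window length with Col1a2 above. With the annotated start as base 1, the match lies at bases 11 to 15, after that start.
Acta2: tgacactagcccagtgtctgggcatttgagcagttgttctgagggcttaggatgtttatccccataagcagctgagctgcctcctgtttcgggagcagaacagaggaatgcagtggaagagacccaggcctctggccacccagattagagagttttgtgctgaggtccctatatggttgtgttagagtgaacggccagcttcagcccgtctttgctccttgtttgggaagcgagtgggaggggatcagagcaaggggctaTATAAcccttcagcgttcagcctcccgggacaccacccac

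The markers and receptors of stellate cells and fibroblasts in this group gave 1 rise among 5 with EE alone, or 20%, against 25.5% of all genes tested. Dcn, Lum and Des, which also mark these cells, are given above. Ngfr, the p75 neurotrophin receptor found on activated stellate cells and also on nerve and other mesenchymal cells, was at 1.49, 2.06, 2.13 and 2.59 CPM in CV and 8.95, 9, 7.97 and 8.19 CPM in EV. It was at 2.86, 3.65, 1.62 and 1.84 CPM in CM and 6.19, 7.5, 7.1 and 6.12 CPM in EM. The lowest EE library, at 6.12 CPM, was above the highest without EE, at 3.65 CPM, and the changes were 2.04 ± 0.23 (adjusted p = 3.25e-06) and 1.43 ± 0.22 (adjusted p = 0.000141). Lrat was at 2.63, 4.13, 6.8 and 8.25 CPM in CV and 3.48, 3.84, 2.78 and 2.68 CPM in EV, with CV replicate 1 below every EV library. Its value was -0.77 (95% interval -1.47 to -0.07, adjusted p = 0.0617), and it was called lower with DESeq2 and without CV replicate 1 (-1, adjusted p = 0.0124). Its EM against CM value was -0.2 (adjusted p = 0.669). Reln (reelin), a secreted glycoprotein of stellate cells in the liver, was at 20.5, 22.3, 53.9 and 34.1 CPM in CV and 24.7, 24.2, 22.9 and 21.7 CPM in EV (-0.48, adjusted p = 0.129), and was called lower without CV replicate 1 (-0.65, adjusted p = 0.0411). The EM against CM value of Reln was -0.54 (adjusted p = 0.109), and it was called lower there without EM replicate 3. The platelet-derived growth factor receptors Pdgfra and Pdgfrb, the first used as a general fibroblast marker and the second as a pericyte and stellate marker, passed in neither comparison. Pdgfra was at 0.917 to 1.99 CPM in CV and 0.729 to 1.69 CPM in EV (-0.25, adjusted p = 0.59). Pdgfrb was at 2.35 to 3.44 CPM in CV and 2.17 to 3.26 CPM in EV (-0.16, 95% interval -0.61 to 0.29, adjusted p = 0.551), and with library totals it was called higher in EM against CM (0.58, adjusted p = 0.034). With library totals the EV against CV values of Bgn, Pdgfra, Pdgfrb and Timp3 were 0.15, 0.22, 0.32 and 0.36, of opposite sign to those with TMM, and none passed.

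Of the 4 remodelling genes measured, 2 proteases rose with EE alone, or 50%, against 25.5% of all genes tested. Mmp14 encodes a membrane-anchored protease that cleaves collagen and activates the gelatinase Mmp2. Mmp14 was at 37.2, 34.5, 34.6 and 30.6 CPM in CV and 58.5, 47.9, 46.5 and 58.1 CPM in EV, without overlap (0.62 ± 0.15, adjusted p = 0.00315). In CM and EM it was at 24.9 to 44.2 CPM and 36.6 to 47 CPM (0.22, adjusted p = 0.29). Mmp2 was at 0.854, 2.22, 1.58 and 1.71 CPM in CV and 2.64, 3.65, 2.6 and 3.47 CPM in EV, also without overlap (0.96 ± 0.35, adjusted p = 0.0312). The Mmp2 call was lost without CV replicate 1, 3 or 4 or EV replicate 2 or 4 (adjusted p up to 0.0894), and its EM against CM value was 0.44 (adjusted p = 0.327). Timp2, which inhibits metalloproteinases and takes part in Mmp2 activation, was at 4.84 to 10.6 CPM in CV and 8.09 to 10.9 CPM in EV (0.3, adjusted p = 0.229). With library totals Timp2 was called higher in both EE comparisons. Timp3, a matrix-bound inhibitor, was at 7.97 to 17 CPM in CV and 9.3 to 14.3 CPM in EV (-0.12, adjusted p = 0.737). The gene Syn3 on the other strand covers 21.3% of Timp3's exon length.

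The ligand and the receptor of the TGF-beta pathway both rose in both EE comparisons. Tgfb1 encodes TGF-beta 1, the main fibrogenic cytokine, which macrophages and other cells also make. It was at 3.27, 7.49, 9.21 and 7.19 CPM in CV and 33.5, 25.8, 27.4 and 26.7 CPM in EV. It was at 5.64, 8.85, 6.79 and 5.47 CPM in CM and 25.6, 14.5, 17.9 and 14.2 CPM in EM. Every EE library was above every library without EE, with EM replicate 1 near the EV libraries and the other EM libraries lower. The changes were 2.06 ± 0.27 (adjusted p = 1.46e-05) and 1.43 ± 0.26 (adjusted p = 6e-04). Tgfbr2, the receptor subunit that binds the ligand, was at 2.35, 3.97, 6.73 and 7.01 CPM in CV and 13.1, 17.6, 12.4 and 11.5 CPM in EV, and at 4.73, 8.59, 5.55 and 6.62 CPM in CM and 11.6, 11.9, 12.3 and 13.5 CPM in EM. It rose by 1.44 ± 0.27 (adjusted p = 0.00047) and 0.95 ± 0.27 (adjusted p = 0.0114), with no overlap in either comparison. The Tgfb1 window is printed because it held 6 matches to GGGCGG, the GC box, or its reverse complement, in capitals. It lies at chr7:25686752-25687051 on the plus strand (GRCm38.p6). With the annotated start as base 1, the first match begins at -164 and the last ends at 17, after the start.
Tgfb1: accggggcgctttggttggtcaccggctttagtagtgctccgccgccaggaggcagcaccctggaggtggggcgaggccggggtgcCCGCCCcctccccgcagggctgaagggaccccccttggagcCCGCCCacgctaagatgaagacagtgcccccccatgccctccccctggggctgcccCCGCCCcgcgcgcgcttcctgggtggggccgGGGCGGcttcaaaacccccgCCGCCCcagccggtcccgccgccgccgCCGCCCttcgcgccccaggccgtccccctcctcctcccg

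Across the 25 promoter windows, searched on both strands, GGGCGG was found in 16, or 64%, against 35.9% of all 27025 windows of the same length. It was in 8 of 13 windows of genes that rose with EE alone and in 7 of 10 of genes that did not pass. TATAA was found in 6 windows (24%, against 25.5% of all), CCAAT in 10 (40%, against 37.9%) and TGANTCA, the AP-1 element, in 1 (4%, against 7.93%), that of Col6a1. The 4 motifs were searched separately, so matches of different motifs could overlap. A match describes these letters only.

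**Figure D3:**
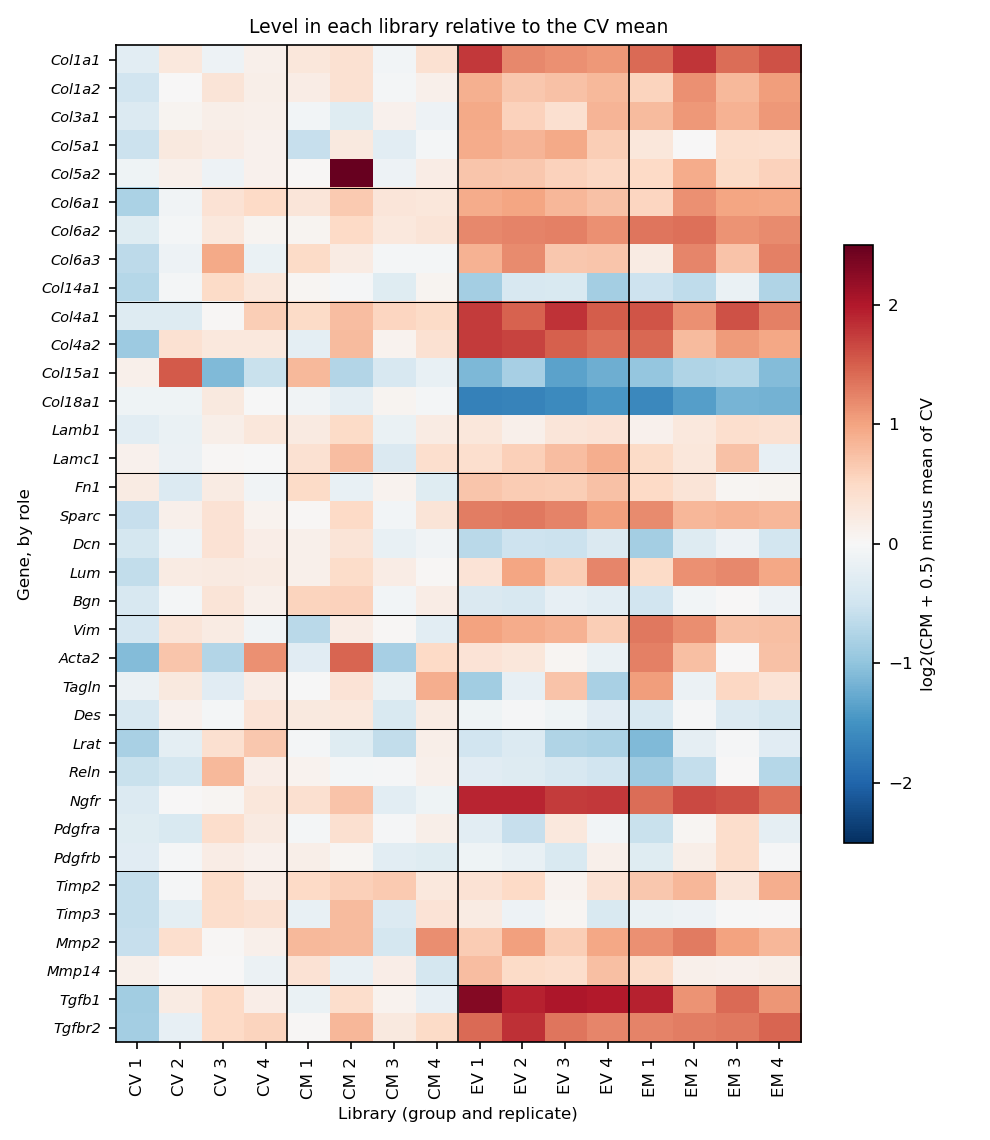
Each gene (rows, grouped by role) in each library (columns, grouped by treatment), as log2(CPM + 0.5) minus the mean of that gene in CV. Values beyond the ends of the colour scale share the end colour. CV replicate 1 is the lowest of its group in 28 of the 35 genes, and CM replicate 2 stands out for Col5a2 at 7.57 CPM.

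Ratios of 2 genes within a library depend little on how libraries are scaled, apart from the 0.5 CPM added to each value, and 6 such ratios were tested for each EE comparison, 12 tests in all. The mean log2 ratio of Col1a1 to Col1a2, the chains of one trimer, was -0.69 ± 0.33 (SD, n = 4) in CV and -0.17 ± 0.26 (SD, n = 4) in EV. The difference of 0.52 had a two-sided exact permutation p of 0.0286, the smallest that 4 against 4 libraries can give, and an adjusted p of 0.0857. The same ratio differed by 0.58 for EM against CM, with the same exact permutation p of 0.0286 and adjusted p of 0.0857. In each case the groups did not overlap, and after adjustment none of the 12 passed 0.05. The smallest p passes after adjustment only if most of the 12 tests reach it. Col1a1 to Col3a1 differed by 0.61 without the ligand, and Col1a1 to Acta2 by 1.17, both at an exact permutation p of 0.0286 (adjusted p = 0.0857). With the ligand these differences were 0.26 and 0.83, with exact permutation p of 0.229 and 0.143, and their groups overlapped. The ratio of Col4a1 to Col4a2, the head-to-head pair, differed by 0.05 and 0.03, each with an exact permutation p of 0.914. The added constant moved some differences by over 1.5 times: with 2 CPM added, Col1a1 to Col3a1 differed by 0.34 in EV against CV and by 0.05 in EM against CM, and with 0.1 CPM added by 0.73 and 0.34.

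**Figure D4:**
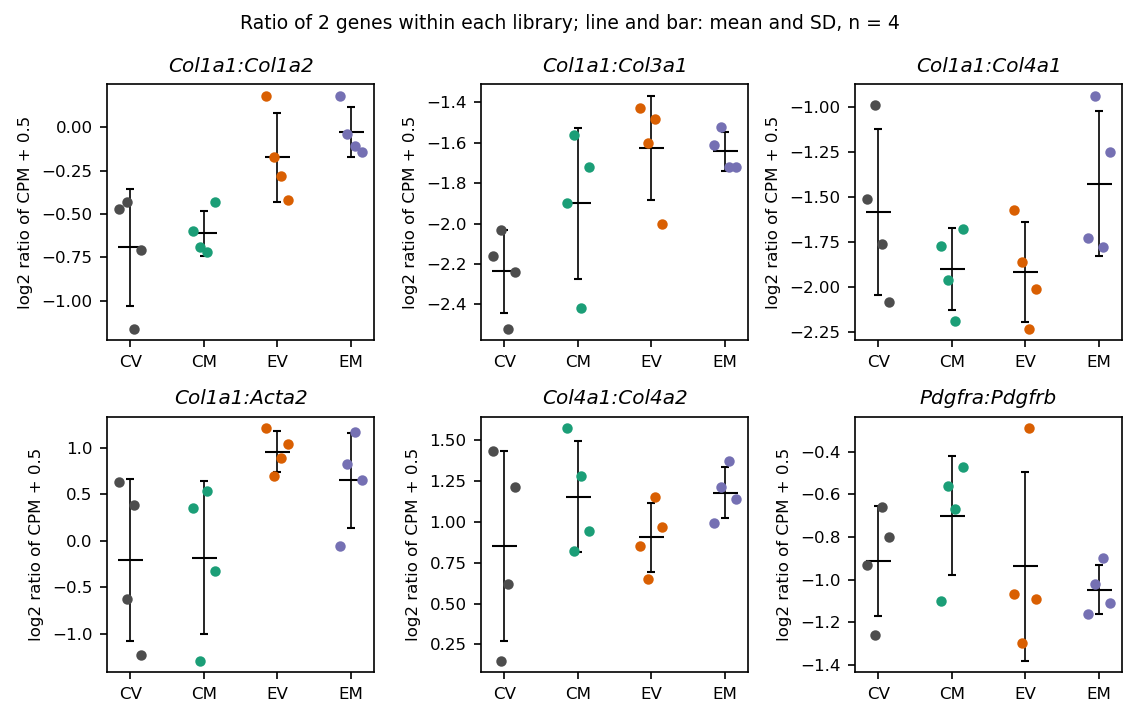
Log2 ratio of CPM + 0.5 (y axis) of 2 genes in each library, by group. Points are libraries, and lines and bars are the mean and SD of 4 libraries. Col1a1:Col1a2 is higher in the EE groups (means -0.17 and -0.03) than in CV and CM (means -0.69 and -0.61), and Col4a1:Col4a2 overlaps in all groups.

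Whether MI763F changed these genes was asked without EE (CM against CV) and with it (EM against EV); each shares libraries with the EE comparisons. edgeR called 0 of the 35 genes in CM against CV, where 0.0929% of all genes tested were called, and 5 had an unadjusted p below 0.05, or 14.3% against 10.5% of all genes tested. Col5a2 was at 1.74 (adjusted p = 0.347) with all libraries and at 0.05 (adjusted p = 0.985) without CM replicate 2. Col4a1 was at 0.53 (95% interval 0.11 to 0.94, adjusted p = 0.34), Timp2 at 0.49 (adjusted p = 0.398) and Mmp2 at 0.81 (adjusted p = 0.422). In EM against EV, 0 of 35 were called, where 1.69% of all genes tested were called, and again 5 had an unadjusted p below 0.05, or 14.3% against 12.7% of all genes tested. Tgfb1 was at -0.65 (95% interval -1.19 to -0.11, adjusted p = 0.267), Col5a1 at -0.58 (95% interval -1.02 to -0.14, adjusted p = 0.219) and Fn1 at -0.42 (95% interval -0.77 to -0.07, adjusted p = 0.266). For these 3 genes and Ngfr, every EM library lay below every EV library, and none passed. That is 4 of 35, or 11.4%, against 3.98% of all genes tested. Mmp14 was at -0.41 (adjusted p = 0.238) and Col18a1 at 0.28 (adjusted p = 0.268). DESeq2 called 0 of the 34 genes to which it gave an adjusted p (all but Col5a2), and every other alternative run called 0 of the 35 in both comparisons.

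The interaction tested whether the EE change differed with the ligand. edgeR called 0 of the 35 genes, where 0.132% of all genes tested were called, with 3 at an unadjusted p below 0.05, or 8.57% against 13.6% of all genes tested. These were Col4a1 (-0.77, 95% interval -1.34 to -0.2, adjusted p = 0.209), Lamc1 (-0.72, 95% interval -1.42 to -0.03, adjusted p = 0.349) and Col18a1 (0.36, 95% interval 0.03 to 0.69, adjusted p = 0.333). The 6 genes that rose in EV against CV and did not pass in EM against CM, namely Col5a1, Col6a1, Lamc1, Fn1, Mmp2 and Mmp14 (of which Col5a1, Col6a1, Fn1 and Mmp14 passed with library totals), are therefore not shown to differ between the comparisons. Over all 35 genes the interaction value was below 0 in 23 and above 0 in 12, with a median of -0.16 beside 0.009 over all genes tested. That of Col5a2 was -1.73 with all libraries and -0.04 without CM replicate 2.

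Other genes of these pathways were read from lists, with examples chosen by smallest p in EV against CV. Their counts stand beside the shares of all genes given above for each comparison. These lists and the cell type lists below were also chosen with earlier results of these data known, so their counts are descriptive. Listed genes that matched no row of the count table are not in these counts. That left out 4 of 23 procollagen genes, 5 of 27 of TGF-beta signalling, 11 of 26 proteases and 19 of 38 structural genes. It also left out 2 of 18 integrins and receptors, 3 of 24 other stellate cell genes and 12 of 20 portal fibroblast list genes. Of 19 tested genes that fold and process procollagen, 12 rose and 1 fell in EV against CV and 8 rose and 1 fell in EM against CM, with a median change of 0.64 and 0.41. Adamts2, which removes the amino-terminal propeptide of procollagens, went from 1.4 ± 0.842 to 34 ± 3.33 CPM (mean ± SD, n = 4; 4.58 ± 0.31, adjusted p = 3.06e-08). Loxl2, a lysyl oxidase-like cross-linker, rose by 1.6 ± 0.21 (adjusted p = 1.35e-05) and Colgalt1, a collagen galactosyltransferase, by 0.75 ± 0.09 (adjusted p = 9.01e-06). All 3 also rose in EM against CM, by 4.04, 1.23 and 0.36. Of 22 genes of TGF-beta signalling and its targets, 7 rose and 2 fell (median 0.07) in EV against CV, and 12 rose and 0 fell with library totals. The shares rising were near the 25.5% of all genes, and 54.6% with library totals, given above. Thbs1, an activator of latent TGF-beta, rose by 2.49 ± 0.48 (adjusted p = 5e-04). The matricellular genes Ccn1 and Ccn2 rose by 2.25 and 1.14 in EV against CV, while for EM against CM they were at 0.23 (adjusted p = 0.699) and -0.08 (adjusted p = 0.844, and 0.3 with library totals). Ccn1 was at 9.98 ± 5.88 CPM in CV, 43.4 ± 13.3 in CM, 47.6 ± 13.2 in EV and 51 ± 28.6 in EM (mean ± SD, n = 4). In CM against CV and in the interaction 0 of the 22 were called, against 0.0929% and 0.132% of all genes tested. The EE changes of Ccn1 and Ccn2 are therefore not shown to differ with the ligand. In EM against CM, 3 of the 22 rose and 2 fell, or 6 and 0 with library totals, where the procollagen list gave 14 and 0.

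Of 15 other matrix proteases and inhibitors, 8 rose and 2 fell in EV against CV and 7 rose and 2 fell in EM against CM, or 9 and 1, and 8 and 0, with library totals. Mmp9, a gelatinase of neutrophils and macrophages, went from 0.709 ± 0.32 to 11.4 ± 3.38 CPM (mean ± SD, n = 4; 3.97 ± 0.46, adjusted p = 4.42e-06). Mmp13, the mouse interstitial collagenase, rose by 4.82 ± 0.47 from 0.0822 CPM, and Adam10, a sheddase, by 1.02 ± 0.09. Of 19 other structural matrix genes, 6 rose and 4 fell in EV against CV and 3 rose and 3 fell in EM against CM, and with library totals 10 rose and 3 fell and 8 rose and 2 fell. Nid1 (nidogen), which links laminin to type IV collagen, went from 3.86 ± 0.89 to 33.9 ± 2.26 CPM (mean ± SD, n = 4; 3.13 ± 0.24, adjusted p = 8.99e-08). The hepatocyte product Vtn (vitronectin) fell from 2560 to 955 CPM (-1.42 ± 0.17) and Ecm1 from 233 to 85.2 CPM (-1.45 ± 0.14). Of 16 integrins and matrix receptors, 7 rose and 4 fell without the ligand and 7 rose and 6 fell with it, or 10 and 2, and 9 and 2, with library totals. Itga2, the alpha-2 subunit of a collagen receptor, was at 0.0319 ± 0.0371 CPM in CV and 7.37 ± 3.23 CPM in EV (mean ± SD, n = 4). Mmp13 and Itga2 had very few counts in CV, so the size of their rise is uncertain. In the protease list and in the integrin list, 1 gene was at 0 in at least 1 CV library. Itga6, of laminin receptors, rose by 2.19 ± 0.2, and the heparan sulfate proteoglycan Sdc2 fell from 101 to 35.3 CPM (-1.51 ± 0.1) and was the 1 gene of this list called in EM against EV, where it was higher (adjusted p = 0.0369).

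Of the 4 ligands of the platelet-derived growth factor receptors, Pdgfb (1.36 ± 0.29, adjusted p = 0.0012) and Pdgfc (1.01 ± 0.37, adjusted p = 0.0318) rose and Pdgfa fell (-1.37 ± 0.31, adjusted p = 0.00179) in EV against CV, and 0 were called in EM against CM. With library totals Pdgfb (0.93, adjusted p = 0.0154) and Pdgfc (0.89, adjusted p = 0.0462) were called higher in EM against CM. Of 21 other genes known from stellate cells, 4 rose and 8 fell in EV against CV, with a median of -0.45, and 7 rose and 2 fell with library totals, with a median of 0.04. In EM against CM, 5 rose and 6 fell, or 5 and 0 with library totals. Tmem56 (2.01 ± 0.15) and Spon2 (4.04 ± 0.36) rose and Angptl6 fell (-1.54 ± 0.16, or -1.05 with library totals). Of 8 portal fibroblast, smooth muscle and mesothelial markers, 2 rose and 1 fell in each comparison, or 4 and 0 in each with library totals. Gas6, a ligand of TAM receptors that several liver cell types express, went from 56.2 ± 23.2 to 522 ± 58 CPM (mean ± SD, n = 4; 3.21 ± 0.28, adjusted p = 3.96e-07). Cd34, also an endothelial gene, rose by 1.77 ± 0.26, and Mylk, the kinase of smooth muscle myosin, was at -0.86 ± 0.19 (adjusted p = 0.00156), and at -0.37 (adjusted p = 0.0874) with library totals.

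The summed CPM of 8 stellate cell and fibroblast markers (Lrat, Reln, Ngfr, Des, Pdgfra, Pdgfrb, Dcn and Lum), most of it Dcn, was 164 to 304 in CV, 202 to 276 in CM, 161 to 189 in EV and 135 to 227 in EM. Without Dcn the sums were 33.1 to 76.8, 45.7 to 53.5, 47.9 to 53.2 and 36.5 to 62.8, overlapping in all groups. Markers of other liver cells moved with EE in the same libraries. No row matched 3 of 9 cholangiocyte, 5 of 13 lymphocyte and neutrophil, 2 of 7 red cell and 1 of 17 proliferation genes listed. The counts below leave these genes out. Of 13 Kupffer cell and macrophage markers, 11 rose and 0 fell in EV against CV and 12 and 0 in EM against CM, and their sum was 385 to 992 CPM in CV, 399 to 813 in CM, 2330 to 2730 in EV and 1910 to 3210 in EM. Of 12 sinusoidal endothelial markers 7 rose in EV against CV and 3 in EM against CM, with sums of 157 to 322 CPM in CV, 207 to 319 in CM, 355 to 396 in EV and 286 to 382 in EM. Of 6 cholangiocyte markers 4 rose in EV against CV, while 2 rose and 1 fell in EM against CM, with sums of 49 to 65.9 CPM in CV, 71.5 to 112 in CM, 153 to 229 in EV and 103 to 222 in EM. Of 8 lymphocyte and neutrophil markers 6 rose in EV against CV and 2 in EM against CM, with sums of 10.9 to 27.2 CPM in CV, 23.5 to 55.5 in CM, 73.4 to 162 in EV and 64.9 to 158 in EM. All 5 red cell genes and all 16 proliferation genes tested rose in EV against CV, and 5 and 14 of them in EM against CM. Of 13 hepatocyte secreted protein genes 9 fell in each comparison. Their sums were 145000 to 180000 CPM in CV, 144000 to 172000 in CM, 63600 to 77600 in EV and 76000 to 89800 in EM. These sums and counts rest on TMM scaling. With library totals 12 macrophage markers rose in each comparison. Endothelial markers that rose were then 11 in EV against CV and 7 in EM against CM. In the same order, 4 and 3 cholangiocyte and 7 and 5 lymphocyte and neutrophil markers rose. Of the hepatocyte genes, 1 rose and 7 fell in EV against CV and 0 and 7 in EM against CM. Of all genes tested, 54.6% and 45.6% rose with library totals, and 25.5% and 19.4% with TMM. None of the cell type markers measured was at 0 in any library. Vim, Tgfb1, Col4a1, Col4a2 and Sparc are expressed by macrophages, endothelial cells or both as well as by stellate cells, and the part of these cells in the changes was not tested.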

How the data were processed

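Poly(A) RNA from mouse liver was sequenced in 16 libraries, with groups taken from the labels. The authors deposited 1 table of estimated counts per gene for all libraries, made with STAR and Salmon on GRCm39 per the submitters' processing notes; no source used here gives versions, annotation, filters or strand handling. Ensembl identifiers were named from the GENCODE M21 annotation, and 12692 of 13006 matched a symbol. Counts were scaled by TMM, and genes passing filterByExpr were fitted over all 16 libraries with 1 coefficient per group (edgeR 4.0.16, glmQLFit robust and glmQLFTest, R 4.3.3). The fit had 12 residual degrees of freedom, a biological coefficient of variation of 0.284 and Benjamini-Hochberg adjustment over 12918 genes. The fit was tested on simulated data. No 2 libraries held more than 3.24% identical values. Ratios were taken within libraries as log2 of CPM + 0.5 and tested by exact permutation.

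Exon lengths and overlaps came from GENCODE M21 and promoter sequences from RefSeq, both on GRCm38 rather than the GRCm39 of the counts, so they are background to the counts and were not used in any test. Levels per length are CPM divided by annotated exon length, since transcript-level lengths were not used here. All listed genes were described. Of each other list, up to 3 examples were taken by smallest p in EV against CV. The members and lists were chosen with earlier results of these data known. Alternatives were RLE size factors, library totals, no filter, 1 CPM in 8 libraries, a replicate block, DESeq2 1.42.0, only the groups compared, each library left out, and pseudocounts of 0.1 and 2 for ratios. Results with a library left out were kept only for comparisons that include its group.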

Additional observations from a re-analysis of the deposited data

Results flagged for a closer look

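In 8 of the 140 combinations of a gene and a group, or 5.71%, 1 library stood apart from the other 3 by more than Dixon's 95% critical value allows; chance does so in about 1 in 20 groups. CM replicate 2 was high for Col5a2, at 7.57 CPM against 0.617 to 0.894 in the other CM libraries, and for Col6a1, at 5.71 CPM against 4.26 to 4.36. CV replicate 1 was low for Col4a2, at 2.06 CPM against 5.25 to 5.73, and for Lum, at 2.92 CPM against 5.54 to 5.64. CM replicate 3 was low for Des, at 2.24 CPM against 3.63 to 3.78. EV replicate 1 was high for Col1a1, at 9.33 CPM against 5.62 to 6.18. EM replicate 1 was high for Sparc, at 83.4 CPM against 65.3 to 67.2, and for Mmp14, at 47 CPM against 36.6 to 37.7.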

How the results depend on the processing

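The counts of genes called higher with EE alone ran from 16 to 18 when each CV or EV library was left out in turn. Those called lower ran from 2 (without CV replicate 3) to 7 (without CV replicate 1). For EM against CM, with each CM or EM library left out, these ranges were 11 to 14 and 1 to 4. Over all genes tested in those runs, 22.6% to 24.4% were higher and 22.7% to 23.8% lower for EV against CV. For EM against CM the shares were 16.4% to 19.8% and 16% to 19.1%. Scaling by library totals gave 2 lower for EV against CV, against 10.3% of all genes tested. It gave 19 higher and 1 lower for EM against CM, against 45.6% and 7.24%. Col5a2 in EM against CM, at -0.82 with all libraries, ran from -1.13 (without CM replicate 3) to 0.88 (without CM replicate 2) with a library left out. DESeq2 gave 19 higher and 5 lower for EV against CV, against 25.9% and 25.8% of all genes tested. For EM against CM it gave 14 higher and 3 lower, against 20.1% and 20.1%. Counts for the 2 comparisons of MI763F and the interaction were 0 under every alternative run (DESeq2 gave Col5a2 no adjusted p). Of the ratios, 0 passed under any, but these tests had little room to pass. A p of 0.0286 passes after adjustment only if most of the 12 tests reach it. With the replicate block the smallest p was 0.125, so no ratio could pass.

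With the replicate block the counts were 18 higher and 4 lower for EV against CV and 12 higher and 3 lower for EM against CM, as without it. The shares of all genes tested were then 25.2% and 24.3%, and 19% and 18.3%. Libraries of the same number correlated between -0.052 and 0.096 in their deviations from the group means, and 6 of 16 matched best a library of their own number, so the numbers were not taken to pair libraries. With 4 libraries a group, exact tests of ratios cannot go below p = 0.0286, and with 3 or 4 pairs cannot pass 0.05. Among genes near 1 CPM, Col5a2 had an interval from -0.46 to 2.29 and Pdgfra one from -1.01 to 0.51 in EV against CV, so changes of those sizes are not excluded. The Col5a2 interval is from the fit over all 16 libraries, which includes CM replicate 2 at 7.57 CPM. With only the CV and EV libraries fitted, Col5a2 was called higher.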
